A study of Zea mays with 157 samples.

Results

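The maize inbred lines B73 and Mo17 were compared in 9 samples of the shoot apical meristem (SAM), ear and tassel, with the tissue as the pair. The tissues were the SAM at stages V1, V3 and V4, ears of 2 mm, 5 mm and 1 cm, a sample labelled Inflorescence, and tassels of 2 mm and 1 cm. Each tissue of each line had 1 circRNA library and 1 mRNA library, so that 36 of the series' 157 samples entered the comparison. A further 44 samples, from 11 leaf tissues of the same lines, entered only the comparison with leaf. Features were kept where the deposited pair lists give an identifier in both genomes. This left 10912 genes of the 71129 listed and 18312 circRNAs of the 127209 listed. Both lines are homozygous inbreds grown in a greenhouse without treatment, and neither carries a transgene or an induced allele per the labels. RNA from 3 separately extracted samples was mixed for each library, so spread between plants was not measured and every p-value below rests on the spread between tissues. Dissected tissues hold several cell types, and in such bulk RNA fewer cells of a type and less RNA per cell cannot be told apart.

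The shoot apical meristem is the dome of dividing cells that makes leaves and stem and later becomes the tassel, the male inflorescence of maize. Ears, the female inflorescences, arise from axillary meristems, and both pass through a series of branching meristems before flowers form. A circRNA is a closed ring that arises when a splice donor joins an acceptor upstream of it in the same transcript. In plants and animals alike, repeats that flank the joined exons and can pair with each other favour this back-splicing, and the length of flanking and enclosed introns varies between maize lines because transposons are inserted at different places. A given host gene can yield several rings that use different donors or acceptors, beside its linear mRNA. B73 carries the reference genome of maize, and Mo17 is the partner line of a classic hybrid, with many genes that differ from B73 in expression or presence. The files and the reference table give no names for the gene identifiers used here, so the defining markers of meristem and inflorescence could not be checked and genes are given by identifier without a role. Exon, intron and UTR annotation was not used here.

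The circRNA libraries held values in RPM, the reads of a circRNA scaled to the size of its library, and the smallest value of a library was read as what 1 read was worth. On that reading the depth was 12566139 to 21635597 reads in B73 and 14494629 to 22602216 in Mo17, and the mean difference between lines had p = 0.555 (exact sign-flip permutation test over tissues, two-sided). mRNA values are given in scaled units, the deposited value divided by a factor per library that sets the median of genes present throughout equal between libraries. These factors ran from 0.397 to 1.02 in B73 and from 1.28 to 1.73 in Mo17, and each statement on mRNA direction depends on them. The lines have separate mRNA tables, and a paired gene has its own gene model in each genome. A factor per library does not correct single genes, so an effect of gene model or table cannot be told apart from a line difference. The B73 libraries of the 2 mm ear and of the SAM at V1 held the fewest circRNAs.

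A pair of libraries stood apart in genes that are otherwise low in their line and high in the other. For each library, genes were taken that lay under 0.5 in the other 8 tissues of its own line and at 5 or more in the other 8 tissues of the other line. In the B73 library of the 2 mm ear, 41 such genes amounted to 4.43% of their sum over both lines, and 19 of them reached 0.5. In the Mo17 library of the 2 mm tassel, 22 such genes amounted to 2.49%, and 12 of them reached 0.5. The other 16 libraries lay between 0.0490% and 0.555%. circRNAs at 0 in the other 8 tissues of the line and with a median of at least 0.2 RPM in those of the other line amounted to 4.0% of their sum in the B73 2 mm ear and to 4.10% in the Mo17 2 mm tassel, against at most 1.39% in the other 16 libraries. The labels give no reason, and the part of these libraries in the results was not tested apart from leaving them out. Without the 2 mm ear and the 2 mm tassel of both lines, 1597 genes were higher in B73 and 1753 in Mo17, against 1882 and 2048 with them. For circRNAs these counts were 222 and 330 without and 258 and 417 with both tissues.

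mRNA differed between the lines for close to the same number of genes in each direction, as the scaling largely sets. It makes the median of genes present throughout equal between libraries, so this balance is not a result about the lines. Of 8054 paired genes at 1 scaled unit or more in at least 3 of 18 libraries, 1882 were higher in B73, which is 23.4% of those tested, and 2048 were higher in Mo17, or 25.4%, together 48.8% (limma with the tissue as a block, Benjamini-Hochberg adjusted p under 0.05). Most differences were small. The median size was 0.52 on the log2 scale among genes called and 0.26 among all tested, and 405 genes (5.03%) were called and at least 2-fold higher in B73 and 380 (4.72%) in Mo17. The sign was the same in all 9 tissues for 1205 genes with B73 higher and 1247 with Mo17 higher. For 465 genes every B73 library was above every Mo17 library, and for 431 genes the reverse held. The 2858 paired genes outside the test were under the minimum, 88 of them at 0 in all 18 libraries.

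**Figure D1:**
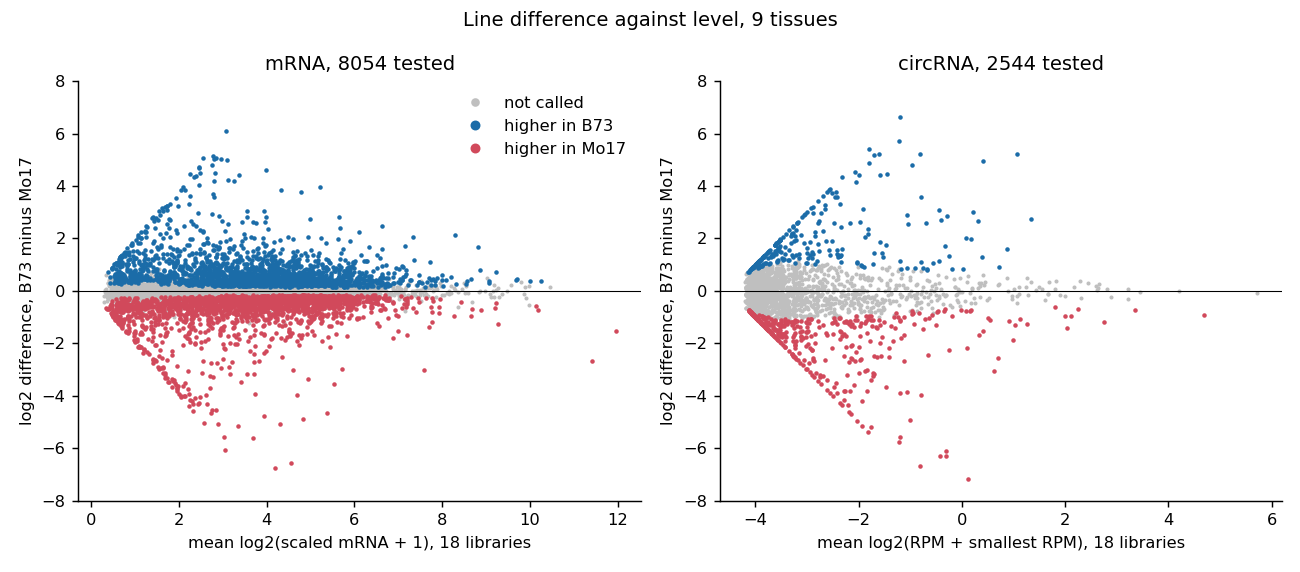
Line difference (log2, B73 minus Mo17, y axis) against the mean log2 level over 18 libraries (x axis) for 8054 genes and 2544 circRNAs; blue and red points passed an adjusted p of 0.05 in the limma fit. Called mRNA differences fill the whole range of levels in both directions, while circRNAs close to a difference of 0 were not called; the straight edges are features near 0 in 1 line.

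The largest mRNA differences were between a clear level in each tissue of 1 line and almost nothing in the other. The part of gene models and tables in them was not tested. Zm00001d011103 lay at 56.6 to 100.2 scaled units in B73, with a median of 63.7, and at 0 to 0.0425 in Mo17. The lines did not overlap, and the difference on the log2(value + 1) scale was 6.11 ± 0.087 (SE, n = 9 tissues, limma adjusted p = 1.18e-12). Zm00001d038650 lay at 21.5 to 58.6 in B73 with a median of 25.6, and at 0 to 0.0266 in Mo17. Zm00001d028453 ran from 20.7 to 63.1 in B73 and from 0.0286 to 0.610 in Mo17. The other 7 of the 10 genes with the largest B73 excess had B73 medians of 28.7 (Zm00001d027242) to 42.6 (Zm00001d015914) and Mo17 medians of at most 0.336 (Zm00001d017345). In all 10 the lines were apart, and in 7 of them the Mo17 2 mm tassel or another single Mo17 library was far above its group, as given in the closing section.

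In the opposite direction Zm00001d025423 ran from 102 to 264 scaled units in Mo17 with a median of 188. In B73 it lay between 0.138 and 1.13 in 8 tissues and at 15.5 in the 2 mm ear, one of the libraries that stood apart. The log2 difference was -6.76 ± 0.44 (SE, n = 9, limma adjusted p = 1.58e-07), and the lines stayed apart also with that library. Zm00001d012742 lay at 154 to 302 in Mo17, with a median of 246, and at 0.882 to 2.17 in B73. Zm00001d039762 was at 50 to 100.1 in Mo17 and at most 0.0380 in B73. Zm00001d035265 was the most variable of the 10 in Mo17, from 6.41 in the V1 SAM to 122 in the 5 mm ear, and did not exceed 0.0730 in B73. Zm00001d022556 was the steadiest, at 48.1 to 63.7 in Mo17 and at most 0.451 in B73. Of 8054 genes tested, those under 1 unit in every library of a line and called higher in the other numbered 144 for Mo17 low and 161 for B73 low. Such genes pass the filter only through the line in which they are high, so their direction was fixed beforehand and these counts are a description. Of the paired genes tested, 11 and 10 went from under 1 in each library of a line to 10 or more in each library of the other.

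The genes with the highest mean mRNA level did not move as a set. Zm00001d004057 was at 1751 to 3418 scaled units in B73 and at 4925 to 10066 in Mo17, and the log2 difference was -1.51 ± 0.12 (SE, limma adjusted p = 9.39e-07). Zm00001d040880 was at 764 to 1406 in B73 and at 3933 to 10157 in Mo17, a log2 difference of -2.67 ± 0.13 (limma adjusted p = 1.18e-08). Both were apart between lines in all 9 tissues. Zm00001d029968 (log2 difference 0.15 ± 0.098, limma adjusted p = 0.226) and Zm00001d030698 (-0.54 ± 0.32, adjusted p = 0.179) did not pass the test.

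The mRNA differences were shared between tissues. Across the 8054 genes, the line difference of a tissue correlated with that of the other 8 at a mean r of 0.701 for the V1 SAM to 0.783 for the 5 mm ear. Genes are the points of this correlation and share libraries and scaling, so it is a description. An effect of the gene model on a gene could also recur in each tissue. Counts of genes at least 2-fold higher in B73 in a tissue ran from 422 in the 2 mm tassel to 755 in the 1 cm tassel, and counts at least 2-fold higher in Mo17 from 385 in the 2 mm ear to 806 in the V3 SAM.

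The number of circRNAs found did not separate the lines. B73 libraries held 4071 to 11051 circRNAs above 0, on average 7742 ± 2354 (SD, n = 9), and Mo17 libraries 5953 to 8220, on average 6874 ± 809 (SD, n = 9). B73 had more in 7 of 9 tissues, and the mean difference of 867.9 had p = 0.215 (exact sign-flip permutation test over 9 tissues, two-sided, smallest possible p 0.00391). Among paired circRNAs the means were 2047 ± 572 in B73 and 2295 ± 239 in Mo17 (SD, n = 9, exact sign-flip p = 0.180), with Mo17 ahead in 5 tissues. At 0.2 RPM or more, B73 had 1616 ± 381 circRNAs and Mo17 1324 ± 185 (SD, n = 9), and that difference passed (exact sign-flip p = 0.0156). Paired circRNAs took 33.2% ± 1.1 of the RPM in B73 and 44.04% ± 1.39 in Mo17 (SD, n = 9), without overlap between lines (exact sign-flip p = 0.00391). The deposited values cover 53558 circRNAs in B73 and 44552 in Mo17, so the same pair list covers catalogues of different size, and its part in this share was not tested.

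**Figure D2:**
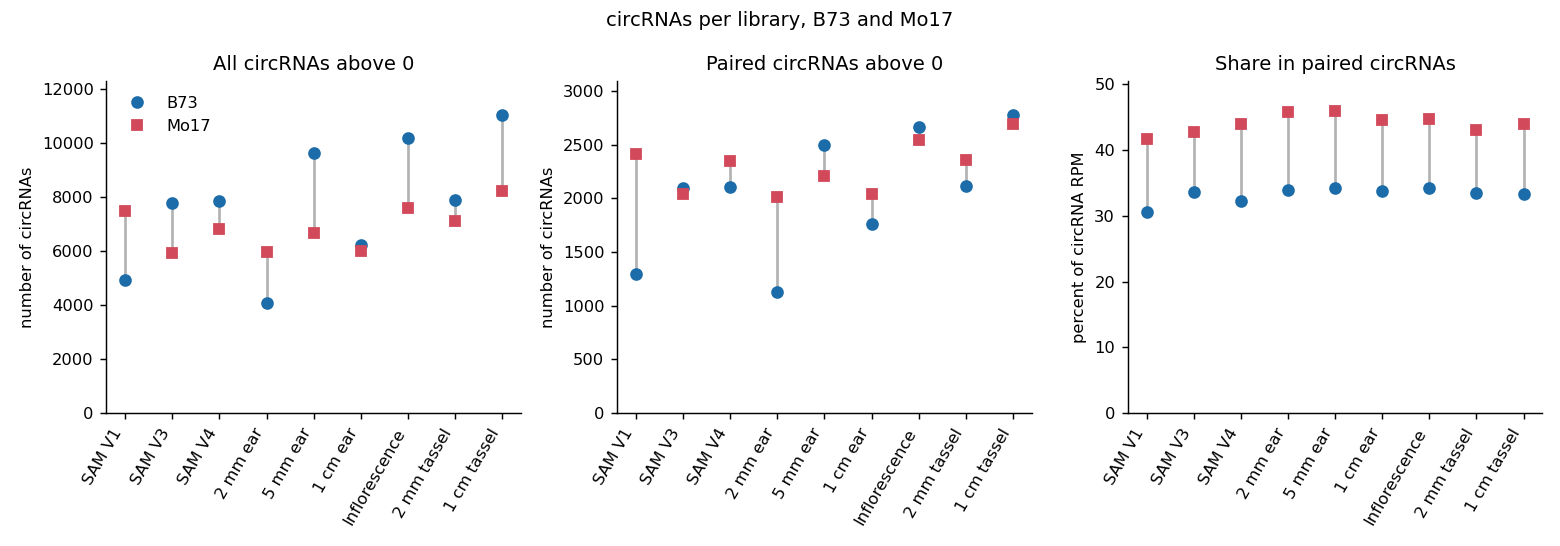
circRNAs above 0 per library (left), those paired between the genomes (centre) and the percent of circRNA RPM in paired circRNAs (right) by tissue; blue circles are B73, red squares Mo17, and grey lines join the lines of a tissue. Numbers cross over between tissues, while the paired share lies between 30.6% and 34.2% in B73 and between 41.7% and 45.97% in Mo17.

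The same tissue of both lines held only slightly more circRNAs in common than different tissues did. Of paired circRNAs found in either library of a tissue, 27.4% ± 2.4 were found in both, against 26.3% ± 1.0 for a tissue with the 8 other tissues of the other line (SD, n = 9, exact sign-flip p = 0.0703). Within a line, tissues shared 29.9% ± 2.2 in B73 and 33.5% ± 0.53 in Mo17. At 0.2 RPM or more the same-tissue share was 38.7% ± 2.6 against 36.02% ± 1.15, higher in 9 of 9 tissues (exact sign-flip p = 0.00391).

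More paired circRNAs were called higher in Mo17 than in B73. These counts cover the pair list only, which held a larger share of the RPM in Mo17. Summed over all circRNAs, paired or not, RPM was 2316 ± 876 in B73 and 1943 ± 443 in Mo17 (SD, n = 9). That sum was higher in B73 in 7 of 9 tissues (exact sign-flip p = 0.0703). Of 2544 paired circRNAs above 0 in at least 5 of 18 libraries, 258 were higher in B73, or 10.1% of those tested, and 417 were higher in Mo17, or 16.4%, together 26.5% (limma with the tissue as a block, adjusted p under 0.05). The other 15768 paired circRNAs were too rarely found to be tested. The filter passes a circRNA on its values in a single line, so the median size of 1.40 (log2) among those called, against 0.49 among all tested, is a description and is not on the scale of the mRNA values. The groups were fully apart for 138 circRNAs, all of them among the 675 called. Of the 258, 99 were at 0 in all 9 Mo17 libraries, and of the 417, 138 were at 0 in all 9 B73 libraries. These passed the filter only through the line in which they are high. Their direction was thus fixed beforehand, and their part of the counts in each direction is a description. At least 2-fold, the calls numbered 219 in B73 (8.61%) and 352 in Mo17 (13.8%). The share called moved with abundance. Among the 636 circRNAs of lowest mean RPM, up to 0.0310, 3.14% were called higher in B73 and 5.50% in Mo17, and among the 636 of highest mean RPM, from 0.160, these shares were 17.1% and 28.3%.

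Among circRNAs higher in B73, Zmcirc001438 of host Zm00001d033502 (chromosome 1, 264627200 to 264629077, plus strand, build B73 RefGen_v4) was at 2.79 to 25.9 RPM in B73 with a median of 13.4. In Mo17 it was at 0 to 1.62 with a median of 0.378, and the lines were apart, with a log2 difference of 5.22 ± 0.26 (SE, n = 9, limma adjusted p = 5.86e-25). Its host mRNA overlapped between lines, at 22.7 to 40.7 scaled units in B73 and 18.2 to 34.3 in Mo17. Zmcirc001934 of Zm00001d025174 (chromosome 10, 107655971 to 107657590, minus strand) was at 4.13 to 14.1 RPM in B73 and at most 0.653 in Mo17. Zmcirc001434 of Zm00001d033375 (chromosome 1, 261005788 to 261006377, minus strand), a 590 bp ring of equal span in both genomes, was at 1.65 to 6.87 RPM in B73 and at most 0.196 in Mo17. Zmcirc001116 of Zm00001d006382 spans 4534 bp in B73 and 14614 bp in Mo17, and was at 1.65 to 5.89 RPM in B73 and at most 0.669 in Mo17. Zmcirc001179 of Zm00001d027444 was at 1.39 to 3.18 RPM in B73 and at most 0.0653 in Mo17.

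Zmcirc001412 was the exception among them in that its host mRNA differed as much as the ring. The circRNA lay at 0.778 to 3.79 RPM in B73 and at 0 in 8 Mo17 libraries, with 0.114 in the 2 mm tassel. Its host Zm00001d032921, one of the 10 genes with the largest B73 excess, lay at 22.5 to 47.7 scaled units in B73 and at 0.0287 to 1.77 in Mo17. The log2 differences were 5.17 for the ring and 4.79 for the mRNA, and relative to the host the ring was at 0.37.

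In Mo17, Zmcirc001849 of Zm00001d023715 (chromosome 10, 16707424 to 16709023, plus strand, 1600 bp in both genomes) reached the largest difference, at 8.24 to 25.7 RPM with a median of 11.8. In B73 it was at 0 in 5 tissues, at most 0.108 in 3 more and at 1.06 in the 2 mm ear, and the log2 difference was -7.19 ± 0.33 (SE, n = 9, limma adjusted p = 1.61e-26). Its host mRNA was at 14.7 to 27.6 scaled units in B73 and 15.1 to 28.01 in Mo17. Zmcirc000162 of Zm00001d039214 (chromosome 6, 172676015 to 172677545, minus strand) was at 3.40 to 15.8 RPM in Mo17 and at most 0.169 in B73. Zmcirc001655 of Zm00001d047717 was at 4.18 to 14.4 RPM in Mo17 and at most 0.292 in B73. Zmcirc000050 of Zm00001d036624 (chromosome 6, 95236161 to 95237076, plus strand) was at 2.68 to 16.6 RPM in Mo17, and in B73 it was at most 0.0492 in 8 tissues but 3.21 in the 2 mm ear, so that the lines overlapped through that library alone. Zmcirc001713 and Zmcirc001813 likewise had their highest B73 value in the 2 mm ear, at 0.504 and 0.451 RPM. Zmcirc001554 of Zm00001d045590 was at 1.01 to 2.99 RPM in Mo17 and at 0 in all 9 B73 libraries. It was at least 97.5-fold higher in Mo17 when B73 is set to 3 reads over its 9 libraries. This floor, used also below, covers counting error only. It takes the smallest RPM of a library as 1 read, which was not shown.

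The most abundant paired circRNAs overlapped between the lines. Zmcirc000447 of Zm00001d050024, with the highest mean RPM of all, was at 20.6 to 105.2 RPM in B73 with a median of 54.2, and at 26.3 to 106.8 in Mo17 with a median of 65.9, and did not pass the test (log2 difference -0.072 ± 0.10, limma adjusted p = 0.669). Zmcirc001201 of Zm00001d027665 (medians of 21.6 RPM in B73 and 19.7 in Mo17) and Zmcirc000625 of Zm00001d040166 (11.3 and 13.2) did not pass either. Zmcirc000628, another ring of Zm00001d040166, was higher in Mo17 in 9 of 9 tissues with medians of 19.8 RPM in B73 and 31.1 in Mo17, by -0.93 ± 0.13 on the log2 scale (limma adjusted p = 1.53e-08). The mRNA of that host went the other way, with medians of 50.1 scaled units in B73 and 17.3 in Mo17, and a log2 difference of 1.16 (limma adjusted p = 6.11e-06).

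Some large differences in opposite directions belong to pairs that the list does not resolve. Zmcirc001321 was at 1.47 to 7.80 RPM in B73 and at 0 in Mo17, and Zmcirc001322 was at 3.35 to 8.41 RPM in Mo17 and at most 0.113 in B73. Both lie on Zm00001d030340, start 4 bp apart in B73 (chromosome 1, 123405967 and 123405963), end at the same base and are paired with the same Mo17 position. Summed over these identifiers alone, RPM was 4.84 ± 2.24 in B73 and 5.92 ± 1.47 in Mo17 (SD, n = 9). Zmcirc000298, at 0.778 to 2.97 RPM in B73 and 0 in Mo17, and Zmcirc000299 of Zm00001d016479 form a like pair 4 bp apart, and their sums were 1.99 ± 0.76 RPM in B73 and 1.86 ± 0.77 in Mo17. Zmcirc001170 of Zm00001d027259, at 0 in all 9 B73 libraries and 0.859 to 2.04 RPM in Mo17, shares its B73 position with Zmcirc001171, while the Mo17 starts are 12760 bp apart. Their sum was 0.172 ± 0.140 RPM in B73 and 1.97 ± 0.54 in Mo17 (SD, n = 9), further apart than either SD, with no test of the sum. In all, 84 tested circRNAs and 58 of those called have a position that is in several pairs, so a difference of theirs can be a difference in which identifier received the reads. In a fit without them 228 circRNAs were higher in B73 and 375 in Mo17.

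After those were set aside, hosts remained whose circRNAs went both ways. Of 96 hosts with at least 2 called circRNAs outside the unresolved pairs, 45 had 1 or more higher in B73 and 1 or more higher in Mo17. In 28 hosts a pair of such circRNAs shared 1 end. Calls outside the unresolved pairs numbered 238 higher in B73 and 379 in Mo17, so a mix would also arise if direction had no tie to the host. The share to be had without such a tie was not computed, and 45 of 96 is a description. The 3 hosts described next were chosen after their values were seen, as those with the widest gap in log2 difference between circRNAs that share an end. On Zm00001d015156 (chromosome 5, minus strand) Zmcirc000251 and Zmcirc000252 both have an end at 77326211. The short ring to 77327153, 943 bp in both genomes, was at 0.709 to 3.41 RPM in B73 and at most 0.0653 in Mo17 (log2 difference 4.87, limma adjusted p = 1.27e-17). The long ring to 77341707 spans 15497 bp in B73 and 3145 bp in Mo17, and was at 0.203 to 0.621 RPM in Mo17. No B73 RPM was listed for it, and it was taken as 0 there. At a floor of 3 reads over 9 libraries it was at least 18.6-fold higher in Mo17. Its host mRNA was a little higher in Mo17, at 14.4 to 24.1 scaled units in B73 and 19.05 to 32.03 in Mo17.

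On Zm00001d002390 (chromosome 2, minus strand) Zmcirc000877 and Zmcirc000878 share the end at 11675374. Zmcirc000877 spans 1801 bp in B73 and was at 1.43 to 3.52 RPM there and at 0.0543 to 0.653 in Mo17, whereas Zmcirc000878, which spans 5271 bp in B73, was at 0 in B73 and at 0.811 to 2.19 RPM in Mo17, at least 73.6-fold higher by the same floor. On Zm00001d018795 (chromosome 7, plus strand) Zmcirc001977 and Zmcirc001975 share the start at 5366588. The longer Zmcirc001977 was at 0.855 to 4.49 RPM in B73 and 0.0621 to 0.372 in Mo17, and the shorter Zmcirc001975 was at 0 to 0.203 RPM in B73 and 0.560 to 1.33 in Mo17. In none of these 6 circRNAs did the libraries of the lines overlap. Wider gaps occurred between circRNAs that share no end, the widest on Zm00001d023715, with Zmcirc003063 at a log2 difference of 2.99 and Zmcirc001849 at -7.19. On Zm00001d037333 several rings were called in each direction, with Zmcirc000075 at a log2 difference of 2.67 and Zmcirc000073 at -4.94.

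**Figure D3:**
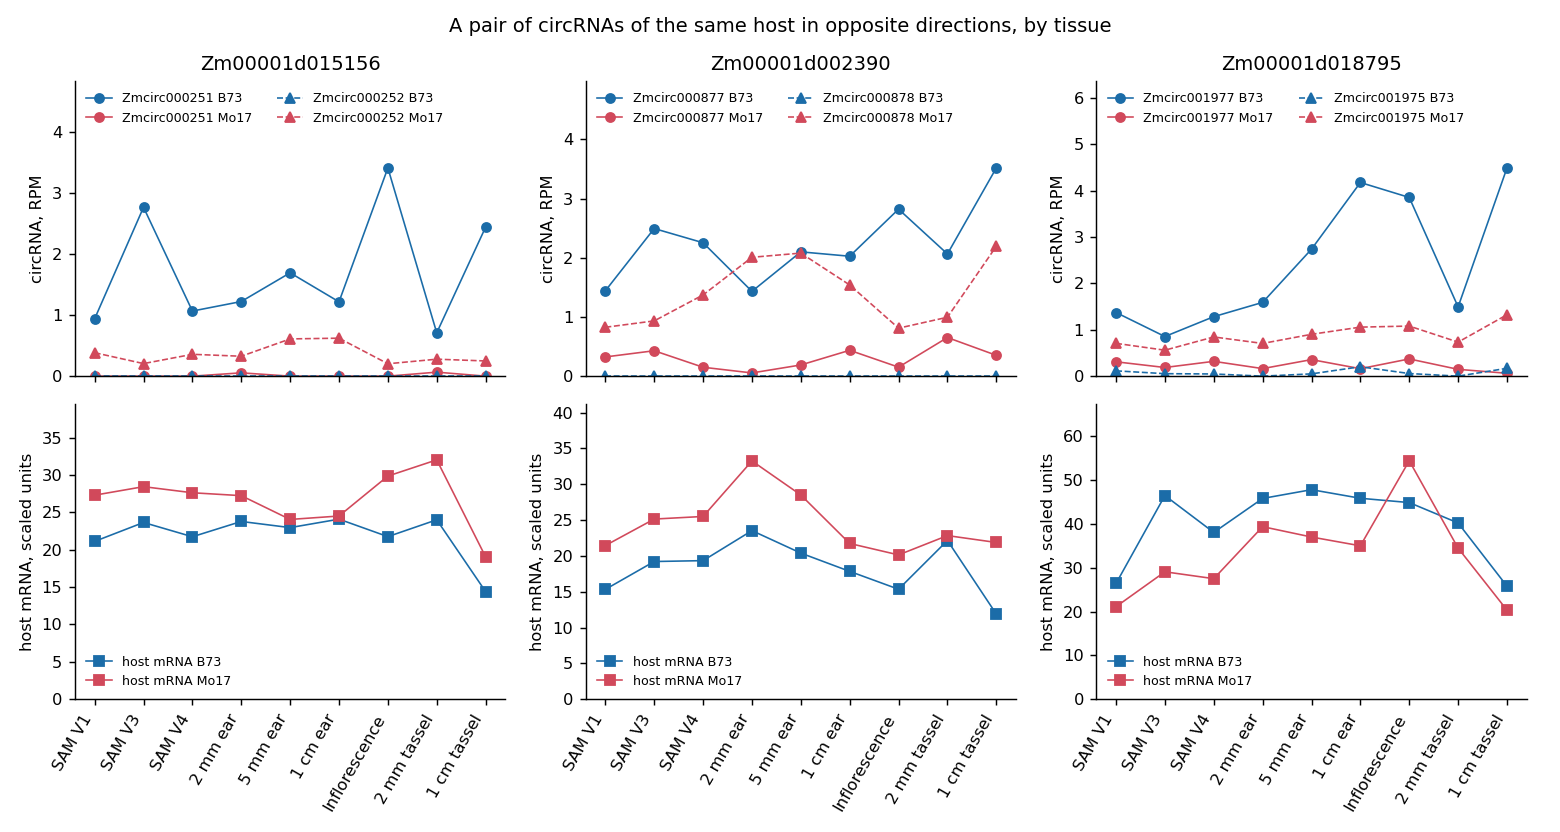
RPM of 2 circRNAs that share an end (top) and scaled host mRNA (bottom) by tissue for 3 hosts; blue is B73, red is Mo17, circles with solid lines are the circRNA higher in B73 and triangles with dashed lines the circRNA higher in Mo17. In each host the blue circles lie above the red circles and the red triangles above the blue triangles in all 9 tissues, while host mRNA lies much closer.

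The share of circRNAs called in each direction differed with the span of the ring in the genomes. Among tested circRNAs in 1 pair only, with the calls of the fit over all 2544, 238 of 2460 were higher in B73 (9.67%) and 379 in Mo17 (15.4%). Where the Mo17 span was longer by over 1000 bp, 27 of 79 circRNAs on 46 hosts were higher in B73 (34.2%) and 12 in Mo17 (15.2%). Where the B73 span was longer by over 1000 bp, 6 of 83 on 52 hosts were higher in B73 (7.23%) and 32 in Mo17 (38.6%). Smaller differences in span did not show this reversal: higher in B73 and in Mo17 were 10.9% and 16.4% of 525 circRNAs longer in Mo17 by up to 1000 bp, and 11.9% and 21.8% of 587 longer in B73 by up to 1000 bp. Where spans were equal, 78 of 1186 were higher in B73 (6.58%) and 121 in Mo17 (10.2%). The median log2 difference was 0.12, -0.69 and -0.12 in the classes longer in Mo17 by over 1000 bp, longer in B73 by over 1000 bp and equal, and the median of mean RPM was alike, at 0.0583, 0.0643 and 0.0608. These counts are a description, since circRNAs of a host share its sequence and are not independent of each other.

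**Figure D4:**
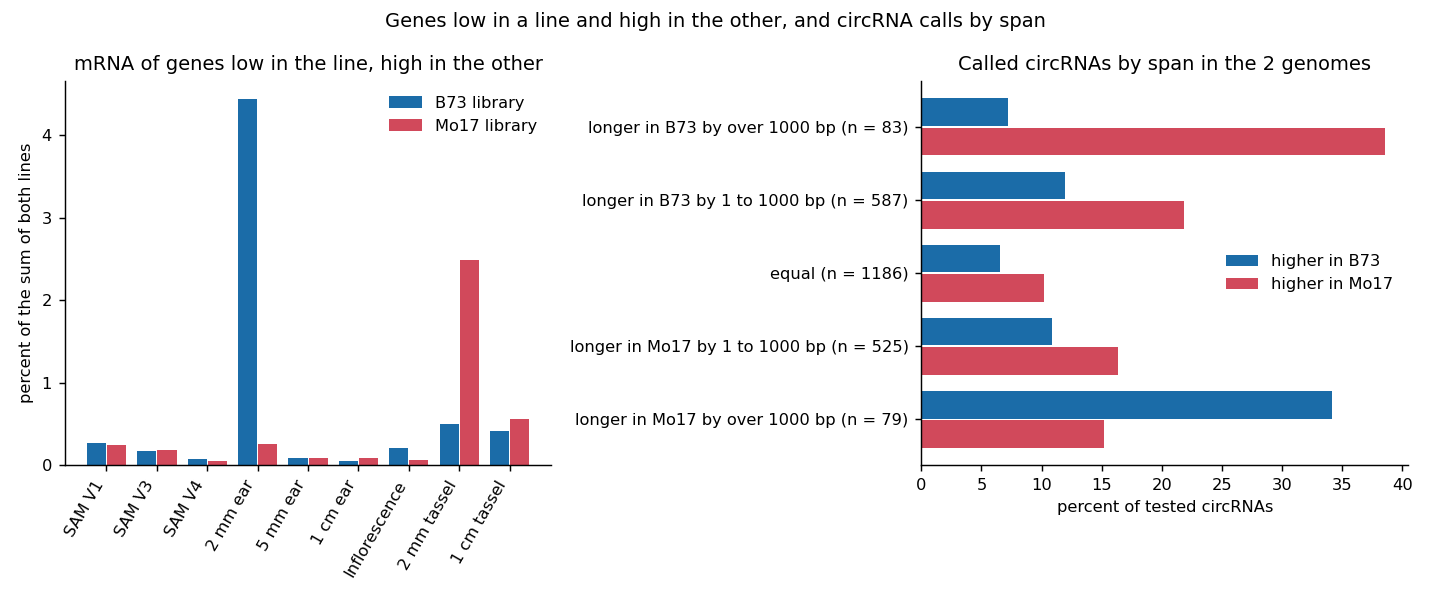
Left, mRNA of genes low in the other 8 tissues of a line and high in those of the other line, as a percent of their sum over both lines, for each B73 (blue) and Mo17 (red) library; right, percent of tested circRNAs called higher in B73 (blue) or Mo17 (red) by the difference in genomic span. The B73 2 mm ear (4.43%) and the Mo17 2 mm tassel (2.49%) stand above all other libraries, and in both outer span classes the larger share of calls is in the line with the shorter span.

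Summed over all circRNAs of a host, paired or not, 380 of 2058 hosts were higher in B73, or 18.5%, and 275 in Mo17, or 13.4% (limma, adjusted p under 0.05). The sums hold the circRNAs that the catalogue of each genome places on the genes of a pair. Zm00001d014302 had 9.50 to 69.4 summed RPM in B73 and 0 to 0.0507 in Mo17, a log2 difference of 8.95 ± 0.27 (SE, n = 9, limma adjusted p = 1.06e-30), and 74.4% of the B73 sum came from a ring with no Mo17 partner. Its mRNA was higher in Mo17, at 48.2 to 62.1 scaled units against 12.6 to 28.2 in B73. Zm00001d032567 had 32.3 to 126.9 summed RPM in B73 and 0.196 to 1.12 in Mo17, and 99.2% of the B73 sum came from the unpaired Zmcirc018933. Its mRNA did not pass the test (log2 difference 0.17, limma adjusted p = 0.0592). Zm00001d014909 had 6.39 to 19.6 summed RPM in B73 and 0 in Mo17, at least 795-fold higher in B73 at the floor of 3 reads over 9 libraries, and 97.2% of it was the unpaired Zmcirc020933. Zm00001d029608 had 3.14 to 11.9 in B73 and at most 0.104 in Mo17.

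In Mo17 the largest sum difference was that of Zm00001d037195, with 33.7 to 62.7 summed RPM against at most 0.0847 in B73 (log2 difference -9.60 ± 0.24, limma adjusted p = 6.63e-34). It carried 23 circRNAs in Mo17 and 1 in B73, and 74.0% of the Mo17 sum came from the unpaired Zmcirc080941. Its mRNA was higher in Mo17 too, at 13.4 to 19.9 scaled units against 4.10 to 7.97. Zm00001d053268 had 1.77 to 7.64 summed RPM in Mo17 and at most 0.0984 in B73, with mRNA that did not pass the test (log2 difference -0.020, limma adjusted p = 0.918). Zm00001d004057, the gene with the highest mRNA level, had 1.01 to 3.95 summed RPM in Mo17 and at most 0.0564 in B73. Zm00001d036624 is the host of Zmcirc000050, which made up 94.2% of its Mo17 sum. Of 2562 paired hosts with circRNA in both lines, 1064 (41.5%) had the same paired circRNA as their most abundant, and of 102 hosts with a sum of at least 9 RPM over the 9 tissues in each line, 75 (73.5%) did.

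Line differences of circRNAs did not follow those of their hosts closely. Of 257 circRNAs higher in B73 with a tested host, the host mRNA was higher in B73 for 83 (32.3%) and in Mo17 for 52 (20.2%), against 24% and 23.3% over all 2543 tested with a host. Of 417 circRNAs higher in Mo17, the host was higher in Mo17 for 106 (25.4%) and in B73 for 114 (27.3%). The median host difference was 0.046, -0.0084 and 0.0023 (log2) in these groups and over all tested. Relative to host mRNA, 279 of 2543 circRNAs were higher in B73, or 11%, and 462 in Mo17, or 18.2%, together 29.1% (limma, adjusted p under 0.05). Of the 674 called circRNAs with a tested host, 555 were called in the same direction. That fit subtracts host mRNA from the same circRNA values, so this agreement was largely set beforehand and is a description.

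Zmcirc000162 was the called circRNA with the largest difference against the direction of its host. Its mRNA, Zm00001d039214, was at 113 to 256 scaled units in B73 and 57.6 to 135 in Mo17, a log2 difference of 0.91 (limma adjusted p = 8.55e-06), beside -6.29 for the ring. Zmcirc000073 of Zm00001d037333 was at 1.59 to 4.19 RPM in Mo17 and at most 0.292 in B73, with a host difference of 0.32 (limma adjusted p = 0.0114). Zmcirc001173 of Zm00001d027324 was at 1.66 to 4.45 RPM in B73 and at most 0.315 in Mo17. The mRNA of that host was at 24.1 to 41.1 scaled units in B73 and 54.1 to 68.5 in Mo17, and relative to it the ring differed by 5.61 ± 0.38 (log2, SE, n = 9, limma adjusted p = 1.95e-12).

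**Figure D5:**
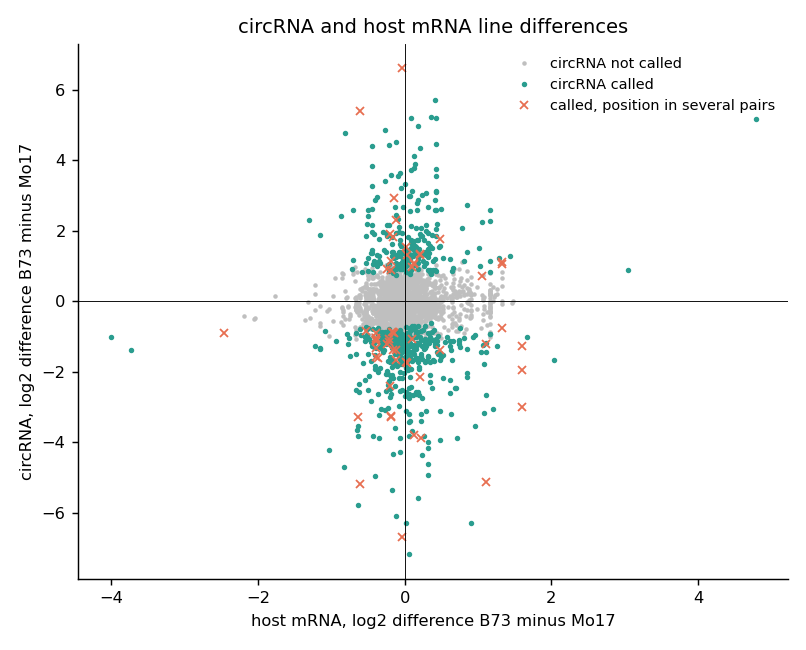
Line difference of each circRNA (y axis, log2, B73 minus Mo17) against that of its host mRNA (x axis, same scale) for 2543 tested circRNAs; green points passed an adjusted p of 0.05 and orange crosses did so but have a position in several pairs. Called circRNAs spread up and down about a host difference of 0, and Zmcirc001412 at the upper right is the one with a host difference of 4.79.

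A small set of genes differed between lines by an amount that was itself different in the SAM and in ear, tassel and inflorescence. The line difference, B73 minus Mo17, was larger in the 3 SAM tissues than in the 6 others for 8 of 8054 genes, or 0.0993%, and smaller for 23, or 0.286% (limma interaction, adjusted p under 0.05), with 834 at an unadjusted p under 0.05. Leaving out 1 tissue at a time gave 0 to 9 and 2 to 21, with 0 and 3 without the V3 SAM and 1 and 2 without the V4 SAM. Zm00001d004687 was at 60.7 to 257 scaled units in the Mo17 SAM, at 0.780 to 13.9 in the 6 other Mo17 tissues, at 0 in the B73 SAM and at most 0.159 elsewhere in B73 (interaction -4.81 ± 0.70, SE, limma adjusted p = 0.0206). Zm00001d005878 was at 7.41 to 22.8 in the Mo17 SAM, at most 0.529 in the other Mo17 tissues and at most 0.0036 in B73. Both were thus SAM-high in Mo17 and nearly absent in B73.

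Zm00001d031934 showed the reverse, at 10.8 to 47.3 scaled units in the B73 SAM and 0.313 to 5.42 in the Mo17 SAM, with at most 2.87 and 9.10 in the other tissues (interaction 3.48 ± 0.53, limma adjusted p = 0.0263). Zm00001d015256 was at 55.0 to 72.7 in the B73 SAM and 87.1 to 120 in the Mo17 SAM, and at 43.2 to 86.5 in the other B73 tissues and 123 to 560 in the other Mo17 tissues. Zm00001d047659 and Zm00001d004624 were the other genes among the 4 with the largest interaction in the direction of Zm00001d031934, at 2.14 and 1.60 (log2). The next 2 genes had a negative interaction, as Zm00001d004687 did. Zm00001d017065 (interaction -2.79) was higher in B73 in all 6 ear, tassel and inflorescence tissues, at 5.77 to 28.1 against 1.27 to 5.04, and overlapped in the SAM. Zm00001d031221 (interaction -2.58) was at 8.75 to 16.9 in the Mo17 SAM, 0.310 to 2.75 in the other Mo17 tissues and at most 0.0531 in B73. For circRNAs the interaction gave 0 calls in each direction of 2544 tested, or 0%, with 176 at an unadjusted p under 0.05 by limma, the tool used.

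The line difference of meristem, ear and tassel was set against that of the 11 leaf tissues of the same lines. Most of these are labelled as an L and an N version of the same leaf or leaf part, and the versions entered as separate tissues. It was larger (B73 minus Mo17) than in leaf for 774 of 8738 genes, or 8.86%, and smaller for 945, or 10.8% (limma interaction over 40 libraries, adjusted p under 0.05), and these counts include genes whose line difference lies in leaf. Zm00001d002192 was at 46.4 to 254 scaled units in these organs of Mo17 and at 3.003 to 6.06 in those of B73, while both lines were at most 2.72 in leaf (interaction -4.32 ± 0.24, limma adjusted p = 4.07e-11). Zm00001d035265 was at 3.91 to 75.6 in these organs of Mo17 and at most 0.127 in Mo17 leaf and in all of B73. Zm00001d021413 was at 17.97 to 33.8 in meristem, ear and tassel of B73 and 0.447 to 1.07 in those of Mo17, whereas leaf overlapped at 21.6 to 65.9 in B73 and 9.69 to 73.4 in Mo17. Values in this comparison are scaled over 40 libraries and are not on the scale of those above.

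Zm00001d026369 changed direction between the organs. It was higher in Mo17 in all 9 meristem, ear and tassel tissues, at 3.08 to 44.7 against 0.183 to 1.46 in B73, and higher in B73 in all 11 leaf tissues, at 3.32 to 37.7 against at most 0.125 in Mo17 (interaction -6.54 ± 0.45, limma adjusted p = 1.24e-09). Zm00001d025253 was higher in B73 in the 9 tissues, at 1.33 to 7.57 against at most 0.569, and in leaf it was higher in B73 in 3 of 11. Zm00001d003867, Zm00001d025016 and Zm00001d011003 were leaf genes, at most 1.10 units in the 9 tissues.

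For circRNAs the line difference was larger than in leaf for 52 of 3505, or 1.48%, and smaller for 133, or 3.79%, together 5.28% (limma interaction, adjusted p under 0.05). Zmcirc001713 of Zm00001d008742 (chromosome 8, 18826366 to 18830887, plus strand), a ring of 4522 bp in B73 and 9708 bp in Mo17, was at 1.57 to 5.63 RPM in these organs of Mo17. It was at most 0.335 in Mo17 leaf and at 0 in B73 leaf (interaction -5.34 ± 0.53, limma adjusted p = 1.72e-10). Zmcirc001518 of Zm00001d044878 (chromosome 9, 6330784 to 6344402, plus strand) was at 0.320 to 1.13 RPM in these organs of B73, at most 0.179 in B73 leaf and at most 0.0489 in Mo17. Zmcirc007729, Zmcirc007730 and Zmcirc007732 of Zm00001d035212 and Zmcirc008104 and Zmcirc008107 of Zm00001d032353 were leaf circRNAs, with at most 0.131 RPM in the 9 tissues, and Zmcirc001321 is of an unresolved pair. Scaling circRNA libraries to the same total left 32 and 59 calls.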

How the data were processed

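The circRNA tables hold RPM per circRNA as deposited by the authors. The Mo17 mRNA table holds TPM as deposited (columns sum to a fixed total). The B73 mRNA table was deposited by the authors as a signal of unnamed unit. HISAT, StringTie, TopHat and SAMtools and the build B73 RefGen_v4 are named per the submitters' processing notes, and the circRNA caller and the Mo17 genome version are not given in the sources used here. Per the labels' protocols, 3 extractions were mixed per library, although 98.8% of B73 and 99.0% of Mo17 mRNA values equal a mean of 3 six-decimal numbers.

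B73 and Mo17 values were matched by the deposited pair lists, which hold other (non-measurement) identifiers and positions as deposited. A circRNA absent from the table of a line was taken as 0. Named examples are Zmcirc001321, Zmcirc000298 and Zmcirc003063 in Mo17, and Zmcirc000252 and Zmcirc001170 in B73. Of the 18312 paired circRNAs, 7945 are in both tables and 5440 in neither. None of the 10912 gene identifiers matched the reference gene table (assembly Zm-B73-REFERENCE-NAM-5.0), so the gene and marker lists could not be tested. mRNA libraries were divided by their median ratio to the geometric mean over 6004 paired genes at 1 or more in all 18 libraries. limma 3.58.1 in R 4.3.3 was run with a mean-variance trend and the tissue as a block on log2(scaled value + 1) and on log2(RPM + 0.0442), the smallest RPM above 0, and p-values were adjusted over all tested features. Such fold changes understate the change of low features. Pairing by tissue comes from the labels: deviations of the same tissue in both lines correlated at 0.427 to 0.827 for mRNA and 0.00717 to 0.166 for circRNA. Numbers and sharing of circRNAs were compared with exact sign-flip permutation tests over the 512 sign patterns of 9 tissues.

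The features named were those with the largest differences passing the test with the same sign in all 9 tissues (10 genes, 8 circRNAs, 4 hosts in each direction), the 4 called circRNAs most opposite to their hosts, the 4 in each direction relative to the host and by interaction, and the 4 most abundant. The members and lists were chosen with earlier results of these data known. Taking the smallest RPM of a library as 1 read, 57.5% to 71.0% of its values came out whole (within 0.01 of a read), too few for a test on counts. In sixths of that smallest RPM, 80.5% to 100% of values came out whole. The smallest RPM is therefore not shown to be 1 read, and the depths and fold floors hold only if it is. Intervals and floors cover counting error only. The F1 tables, the other tissues and 1 total RNA library were not used here.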

Additional observations from a re-analysis of the deposited data

Results flagged for a closer look

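In each group of 9 libraries the highest and the lowest value were compared with the nearest other value. In all, 113 groups were checked, and a gap above 0.493 of the range is reported. Chance gives such a gap in about 1 of 20 groups of normally distributed values. That rate does not hold for groups with most values at or near 0, of which several are listed below.

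Most such values fell in the pair of libraries that stood apart in genes otherwise low in their line. In the Mo17 2 mm tassel, genes otherwise near 0 in Mo17 stood apart, with Zm00001d015986 at 2.05 scaled units (next library 0.115), Zm00001d032921 at 1.77, Zm00001d002937 at 1.28, Zm00001d014868 at 0.622, Zm00001d028453 at 0.610 and Zm00001d027242 at 0.331. Zmcirc001412 was at 0.114 RPM there and at 0 in the other Mo17 libraries. In the B73 2 mm ear, Zm00001d025423 was at 15.5 scaled units (next 1.13) and Zm00001d041746 at 4.22 (next 0.369). In the same B73 library Zmcirc000050 was at 3.21 RPM, as was the circRNA sum of its host Zm00001d036624. Zmcirc001849 was at 1.06 RPM there, Zmcirc001713 at 0.504 and Zmcirc001813 at 0.451. The part of RNA or reads of the other line in these values was not tested.

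Other values apart from their group were the summed circRNA RPM of the Mo17 1 cm tassel at 2941 (next 2189), Zm00001d034438 in the Mo17 2 mm ear at 15.3 scaled units (lowest, next 71.1), and Zmcirc001438 in the B73 V1 SAM at 2.79 RPM (lowest, next 8.95). The circRNA sum of Zm00001d004057 was lowest in the Mo17 2 mm ear at 1.01 RPM and above 0 in B73 only in the Inflorescence sample, at 0.0564. The sum of Zm00001d014302 was above 0 in Mo17 only in the Inflorescence sample, at 0.0507, and Zm00001d011103 was above 0 in Mo17 only in the V4 SAM, at 0.0425 scaled units.

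The line difference differed between the SAM and the other tissues for 31 genes by the limma interaction at an adjusted p under 0.05. The interaction was 3.48 (log2) for Zm00001d031934, 2.14 for Zm00001d047659, 1.61 for Zm00001d015256 and 1.60 for Zm00001d004624. It was -4.81 for Zm00001d004687, -3.39 for Zm00001d005878, -2.79 for Zm00001d017065 and -2.58 for Zm00001d031221. Against leaf, 1719 genes and 185 circRNAs differed. The gene values were 4.97 for Zm00001d003867, 3.83 for Zm00001d025016, 3.70 for Zm00001d025253, 3.62 for Zm00001d021413, -6.54 for Zm00001d026369, -4.42 for Zm00001d035265, -4.32 for Zm00001d002192 and -4.24 for Zm00001d011003. The circRNA values were 4.73 for Zmcirc008107, 2.93 for Zmcirc001321, 2.88 for Zmcirc001518, 2.81 for Zmcirc008104, -6.24 for Zmcirc007729, -5.34 for Zmcirc001713, -5.29 for Zmcirc007730 and -4.22 for Zmcirc007732.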

How the results depend on the processing

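Of the alternative values of the comparisons, 204 kept their call or stayed within 1.5 times the count, 51 moved and 3 became stronger. Among alternative values of named features, 1176 kept their sign and their call or lack of one. A further 44 lost their call, 4 gained it and 7 reversed in sign. The scaling decided the mRNA directions: with values as deposited the median difference was -0.88 (log2), 340 genes were higher in B73 and 6912 in Mo17, 13 were larger in the SAM, the leaf comparison gave 321 and 5307, the circRNAs relative to host 1099 and 151, and Zm00001d029968 turned to -0.84. Without the replicate block (tissue pairing), 1301 genes were higher in Mo17, 2 and 6 were larger and smaller in the SAM, and 313 and 383 against leaf; the block changed no other count by over 1.5 times. SAM counts were 3 and 12 at a pseudocount of 0.1, 3 and 14 without the filter, and 0 and 3 with 5 or more in at least 9 libraries, where leaf gave 376 and 414. circRNA counts were 146 and 257 when above 0 in 2 libraries was enough, and 151 in B73 when 9 were needed (153 relative to host). Against leaf, circRNA counts were 32 and 59 at equal totals, 83 larger at a pseudocount 10 times larger (482 in B73 relative to host), 30 larger with the looser filter, 8 and 23 with the stricter, and 29 and 75 without leaf tips. With a 2-fold minimum, 405 and 380 genes remained called. With that minimum for circRNA and host, the host of 218 circRNAs higher in B73 was higher in B73 for 10 (4.59%) and in Mo17 for 2 (0.917%). The host of 352 circRNAs higher in Mo17 was higher in Mo17 for 6 (1.70%) and in B73 for 16 (4.55%). Over all 2543 tested, these host shares were 3.46% for B73 and 1.02% for Mo17. At 0.2 RPM the number difference was 291.8 (exact p = 0.0156) and the sharing difference 2.66 percentage points (exact p = 0.00391). Leaving out 1 tissue gave 0 to 9 and 2 to 21 genes in the SAM comparison and 0 to 4 circRNAs smaller in the SAM, the 4 without the V3 SAM, and sharing differences of 0.866 to 1.42 (exact p = 0.0312 to 0.141). It moved the uncalled Zmcirc001201 from -0.11 to 0.11 and Zmcirc000625 from -0.17 to 0.11. Without the 2 tissues of lowest B73 depth or number, added after seeing the data as were the omission of both 2 mm tissues and of unresolved pairs, they were at 0.12 and 0.090. The causes were not tested. Depth limits circRNAs under a few reads per library, and pooled plants leave plant-to-plant error unmeasured.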
